A study of Mus musculus with 6 samples.

Results

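The EphB receptors and the ephrin-B ligands are a family of cell contact signals, and 8 of their genes were followed here: Ephb1, Ephb2, Ephb3, Ephb4 and Ephb6 on the receptor side and Efnb1, Efnb2 and Efnb3 on the ligand side. They were listed by gene symbol, with earlier results of these arrays known. Of the 8 genes, 7 had a probe set that the platform annotation assigns to 1 gene only, among 19937 genes measured that way. Ephb2 had none and was not analysed here. The cells were taken at E11.5 from CD1 mouse embryos, out of the region of the aorta, gonads and mesonephros (AGM). The tissue was digested with collagenase and sorted for cells with CD31 and without CD45 or Ter119. A last sort on c-kit, the surface receptor of stem cell factor, gave c-kit-positive cells (3 arrays) and c-kit-negative cells (3 arrays). No genotype or agent separates the populations, which share strain, age, tissue and the CD31-positive, CD45-negative and Ter119-negative gate. The labels call the replicates biological without saying whether embryos were pooled, so p-values cover only the spread among these 6 arrays.

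Ephrin-B ligands are transmembrane proteins, so ligand and receptor meet only where cells touch, and both cells receive a signal: the receptor signals forward through its tyrosine kinase, and the ligand signals in reverse through its own cytoplasmic tail. In the vasculature ephrin-B2 is known as a mark of arterial endothelium and EphB4, its main vascular receptor, as a mark of veins, and mouse embryos that lack either gene fail to remodel their vessels. The AGM region holds the dorsal aorta, from whose wall the earliest definitive haematopoietic stem cells emerge.

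All values are log2 RMA values, a background-corrected and normalised array intensity. Kit, whose protein divided the populations, stood at 9.55 ± 0.03 in c-kit-positive cells and 8.22 ± 0.04 in c-kit-negative cells (mean ± SD, n = 3 each). Pecam1, which encodes the CD31 of the gate, averaged 9.13 in c-kit-positive cells and 10.02 in c-kit-negative cells, a fall of 1.86-fold (limma, adjusted p = 0.00597). Ptprc, which encodes the CD45 that the gate excluded, averaged 8.52 in c-kit-positive cells and 8.75 in c-kit-negative cells. Its difference did not pass (limma, adjusted p = 0.689). Array medians lay between 5.42 and 5.52. Of all 19937 genes, 540 (2.71%) were higher and 937 (4.7%) were lower in c-kit-positive cells when limma's p, adjusted by Benjamini-Hochberg, was required to be under 0.05, and the median difference over all genes was 0.07. The table has no detection calls and a probe set's brightness depends on its probes, so no gene's level is ranked against another's. Values that join genes, such as a list's mean level, are read only for their change between populations.

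Efnb2 and Ephb4, the arterial ligand and its venous receptor, were both lower in c-kit-positive cells, by 5.49-fold and 2.65-fold. The other 5 measured members did not pass. Thus 2 of 7 members (28.6%) were called lower, where 4.7% of all genes were, and 0 of 7 higher, where 2.71% of all genes were. The median difference over the 7 members was -0.10. These shares describe members that were selected with earlier results of the same arrays known.

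**Figure D1:**
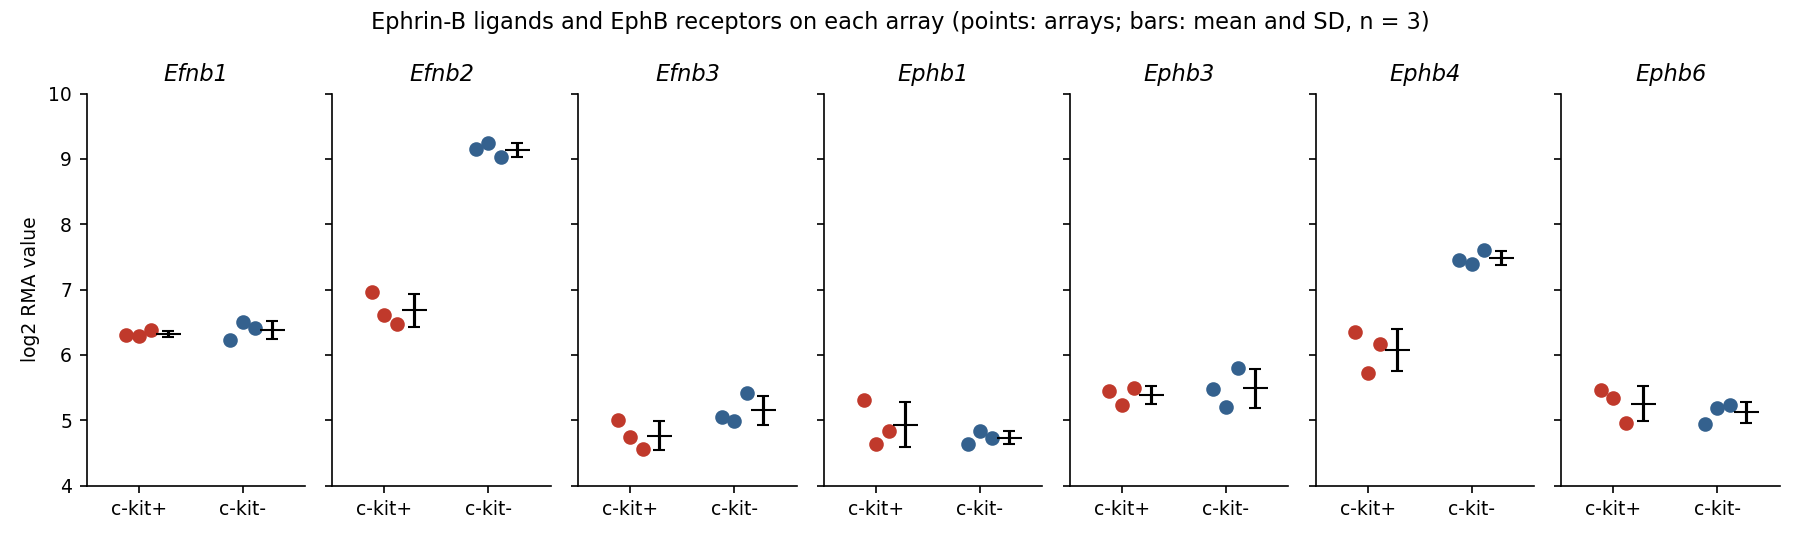
Log2 RMA value (vertical axis) of the 3 ephrin-B ligands and 4 EphB receptors measured, with 1 point per array, c-kit-positive arrays in red and c-kit-negative arrays in blue, and the mean and SD of each population (n = 3) as a black mark. The populations are apart for Efnb2 (6.48 to 6.96 in c-kit-positive, 9.03 to 9.24 in c-kit-negative cells) and for Ephb4 (5.72 to 6.35 in c-kit-positive, 7.39 to 7.60 in c-kit-negative cells), and they overlap for the other 5 genes.

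Among the ligands, Efnb2 (probe set 10576911) encodes ephrin-B2. It read 6.96, 6.61 and 6.48 in c-kit-positive replicates 1, 2 and 3, and 9.15, 9.24 and 9.03 in c-kit-negative replicates 1, 2 and 3. Every c-kit-positive array was below every c-kit-negative array, with a gap several times wider than the spread within either population. The means were 6.68 ± 0.25 in c-kit-positive cells and 9.14 ± 0.11 in c-kit-negative cells (mean ± SD, n = 3 each), a difference of -2.46 ± 0.16 (SE, 95% CI -2.83 to -2.09, adjusted p = 7.88e-05, limma). Ordered from the largest fall, Efnb2 was number 102 of the 19937 genes.

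Efnb1 (probe set 10600936) encodes ephrin-B1, a ligand used widely in mesenchyme and neural crest. Its values were 6.31, 6.29 and 6.37 in c-kit-positive cells and 6.23, 6.51 and 6.41 in c-kit-negative cells. The populations overlapped, and the difference of -0.06 ± 0.13 (SE) did not pass (adjusted p = 0.846, limma). Its 95% CI of -0.37 to 0.25 lies wholly above that of Efnb2 (-2.83 to -2.09).

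Efnb3 (probe set 10387483) encodes ephrin-B3, known best as a midline guidance cue of the nervous system. It read 5.00, 4.74 and 4.56 in c-kit-positive cells, against 5.05, 4.99 and 5.41 in c-kit-negative cells. The highest c-kit-positive value lay just above the lowest c-kit-negative value. The difference of -0.39 ± 0.17 (SE, 95% CI -0.79 to 0.01) did not pass (adjusted p = 0.254, limma).

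Among the receptors, Ephb4 (probe set 10526566), which binds ephrin-B2 with high preference, stood apart. Its values were 6.35, 5.72 and 6.16 in c-kit-positive replicates 1, 2 and 3, and 7.45, 7.39 and 7.60 in c-kit-negative replicates 1, 2 and 3. The populations did not overlap, and the c-kit-positive arrays were the more spread, with replicate 2 the lowest. The means were 6.08 ± 0.33 in c-kit-positive cells and 7.48 ± 0.11 in c-kit-negative cells (mean ± SD, n = 3 each), a difference of -1.40 ± 0.18 (SE, 95% CI -1.82 to -0.99, adjusted p = 0.00271, limma). In the same order from the largest fall, Ephb4 was number 366. Both members that fell also had populations that did not overlap, a separation found for 10.6% of all genes in the downward direction and for 26.8% in either.

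Ephb3 (probe set 10434559), a receptor that acts with Ephb2 in axon guidance and epithelial boundaries, read 5.45, 5.24 and 5.49 in c-kit-positive cells and 5.48, 5.20 and 5.80 in c-kit-negative cells. The populations overlapped almost entirely, and the difference was -0.10 ± 0.18 (SE, 95% CI -0.51 to 0.31, adjusted p = 0.802, limma). Ephb6 (probe set 10537657), a receptor whose kinase domain is catalytically inactive and which signals by pairing with other Eph receptors, read 5.46, 5.34 and 4.95 in c-kit-positive cells and 4.94, 5.19 and 5.23 in c-kit-negative cells. These populations overlapped too (difference 0.13 ± 0.17, SE, 95% CI -0.26 to 0.53, adjusted p = 0.723, limma).

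Ephb1, a receptor of neurons and of endothelial cell attachment, was measured by 2 probe sets, and the brighter (10596115) was used by rule. It read 5.32, 4.64 and 4.84 in c-kit-positive cells and 4.63, 4.83 and 4.73 in c-kit-negative cells. C-kit-positive replicate 1 was the highest array and the other 5 lay together. The difference was 0.20 ± 0.19 (SE, 95% CI -0.23 to 0.63, adjusted p = 0.599, limma), and without c-kit-positive replicate 1 it was 0.01. The other probe set (10596095), to which the annotation links the RefSeq transcripts of the gene, read 4.29, 4.45 and 4.14 in c-kit-positive cells and 4.46, 4.28 and 5.01 in c-kit-negative cells. Its difference of -0.29 ± 0.21 (SE) had the opposite sign and did not pass either (adjusted p = 0.484 over all probe sets, limma). The intervals of the 5 members that did not pass reach from -0.79 to 0.63, so a change of that size is not shown to be absent. Of these, Efnb3, Ephb1, Ephb3 and Ephb6 belonged to the dimmer 50% of genes. Array background can compress the differences of dim genes, so a larger change in them is not excluded either.

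Efnb2 and Ephb4 were also set against each other within each array. The log2 value of Efnb2 minus that of Ephb4 was 0.61, 0.89 and 0.32 in c-kit-positive cells, against 1.70, 1.85 and 1.43 in c-kit-negative cells. Every c-kit-positive array was lower, with means of 0.61 ± 0.29 in c-kit-positive cells and 1.66 ± 0.22 in c-kit-negative cells (mean ± SD, n = 3 each). The change between populations was -1.05. The exact permutation p was 0.1 (two-sided), the smallest that 3 against 3 arrays allow, so this design could not pass a threshold of 0.05 and the change is given as a description of a pair chosen with earlier results known. The zero point of this measure depends on the probes, and only its change between populations can be read.

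**Figure D2:**
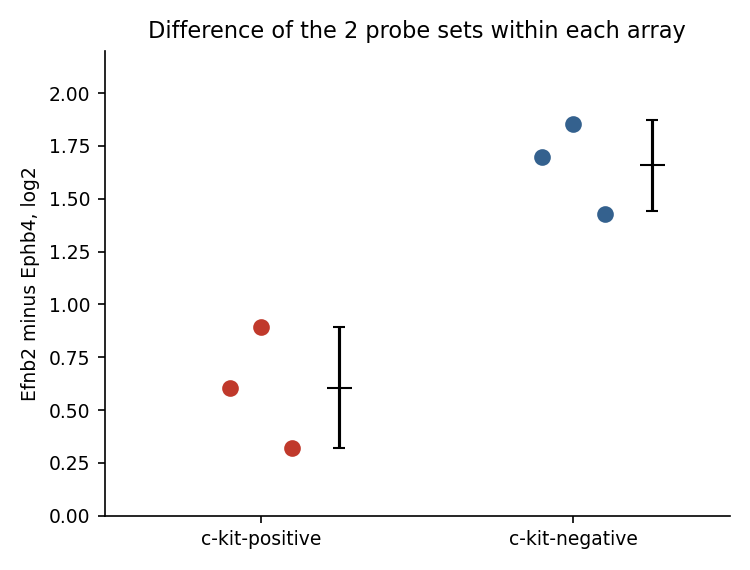
Log2 value of Efnb2 minus that of Ephb4 on the same array (vertical axis), with 1 point per array and the mean and SD of each population (n = 3) as a black mark. The c-kit-positive arrays lie between 0.32 and 0.89 and the c-kit-negative arrays between 1.43 and 1.85.

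The promoters of Efnb2 and Ephb4, which moved in the same direction, are shown beside that of Efnb1, a ligand gene whose populations overlapped and whose promoter is listed. Each sequence holds the 250 bases before the annotated RefSeq start (GRCm38.p6), 5′ to 3′ on the strand of the gene. Efnb2 is at chr8:8661243-8661492 (minus strand), Ephb4 at chr5:137349859-137350108 (plus strand) and Efnb1 at chrX:99135811-99136060 (plus strand). Capitals mark 3 motifs on either strand: the GC box GGGCGG of Sp factors, the CCAAT box of NF-Y, and the core GGAA shared by ETS factors.
Efnb2: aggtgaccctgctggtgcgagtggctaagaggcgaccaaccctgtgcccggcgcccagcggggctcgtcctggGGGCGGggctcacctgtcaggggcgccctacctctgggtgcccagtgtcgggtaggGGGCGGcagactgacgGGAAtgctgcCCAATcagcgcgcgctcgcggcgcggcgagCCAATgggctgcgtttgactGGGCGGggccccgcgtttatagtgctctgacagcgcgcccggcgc
Ephb4: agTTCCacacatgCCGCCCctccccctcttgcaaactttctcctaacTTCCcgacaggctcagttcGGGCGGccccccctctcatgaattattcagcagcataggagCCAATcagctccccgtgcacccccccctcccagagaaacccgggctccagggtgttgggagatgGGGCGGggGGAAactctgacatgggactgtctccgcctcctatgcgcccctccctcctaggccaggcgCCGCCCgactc
Efnb1: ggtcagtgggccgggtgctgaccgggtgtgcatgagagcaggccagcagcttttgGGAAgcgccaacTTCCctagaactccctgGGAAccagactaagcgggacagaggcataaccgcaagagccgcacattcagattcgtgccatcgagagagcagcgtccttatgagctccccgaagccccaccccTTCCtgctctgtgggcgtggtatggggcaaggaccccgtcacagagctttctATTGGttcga

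Efnb2 held 3 GC boxes, 2 CCAAT boxes and 1 GGAA core, and Ephb4 held 4 GC boxes, 1 CCAAT box and 3 GGAA cores. Efnb1 held 0 GC boxes, 1 CCAAT box and 4 GGAA cores. A GC box is not particular to the genes that fell, since Ephb6, which did not pass, held 5 and Ephb3 held 2. Of 32851 promoter windows of this length 32.7% held a GC box, 33.8% a CCAAT box and 93.4% a GGAA core. The letters TGGGAA, the core bound by the Notch effector RBPJ, overlap GGAA and occur in 21.6% of windows. They were found 2 times in Efnb1 and 0 times in Efnb2 and Ephb4 within these windows. Efnb2 and Ephb6 each had 27 CpG dinucleotides, a number reached by 8.56% of windows, while Ephb4 had 12 and the median window 6. Promoters were listed for 7 of the 8 genes, all but Efnb3. These matches describe letters only.

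The A class of the family uses the same receptor architecture with ligands held to the membrane by a lipid anchor. All 14 listed genes, 9 EphA receptors and 5 ephrin-A ligands, were measured. Of these, 4 were lower in c-kit-positive cells (28.6%, against 4.7% of all genes) and 0 were higher (against 2.71%), with a median difference of -0.12. The calls were 2 ligands, Efna5 and Efna1, and 2 receptors, Epha7 and Epha3. This list, too, was chosen with earlier results of these arrays known.

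Efna5, an ephrin-A ligand of axon guidance, was at 5.16, 6.21 and 5.89 in c-kit-positive cells and at 7.14, 7.98 and 8.19 in c-kit-negative cells. The populations did not overlap, and the difference was -2.02 ± 0.33 (SE, 4.05-fold lower, adjusted p = 0.00833, limma). Efna1, which is expressed by embryonic endothelium, was at 7.33, 5.88 and 5.66 in c-kit-positive cells and at 7.86, 7.66 and 8.45 in c-kit-negative cells. C-kit-positive replicate 1 came close to the c-kit-negative arrays, and the fall of 1.69 on the log2 scale (3.24-fold) passed narrowly (adjusted p = 0.0458, limma). It passed in only 1 of the 6 fits that left out an array, the fit without c-kit-positive replicate 1 (adjusted p = 0.00401, limma), where the other 5 gave 0.0781 to 0.137.

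Epha7, a receptor of neural and limb patterning, was at 5.38, 5.22 and 5.71 in c-kit-positive cells and at 6.29, 6.95 and 6.71 in c-kit-negative cells, or 2.31-fold lower (adjusted p = 0.00998, limma). Epha3, a receptor of heart and limb mesenchyme, was at 4.04, 4.17 and 3.75 in c-kit-positive cells and at 4.71, 5.38 and 5.42 in c-kit-negative cells, or 2.27-fold lower (adjusted p = 0.0140, limma). Neither gene had overlapping populations. Epha3 passed in 3 of 6 fits with an array left out, and its adjusted p (limma) was 0.0515 without c-kit-positive replicate 3, 0.0513 without c-kit-negative replicate 2 and 0.0514 without c-kit-negative replicate 3.

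Epha4, Epha2 and Epha6 had populations that did not overlap but missed the threshold, the first 2 lower and Epha6 higher in c-kit-positive cells. Such a separation was found for 10.6% of all genes downward and for 16.2% upward, so it does not mark these genes out. Epha4, which also binds ephrin-B ligands, was at 6.44 ± 0.20 in c-kit-positive cells and 7.16 ± 0.31 in c-kit-negative cells (mean ± SD, n = 3 each, adjusted p = 0.0597, limma). Epha2, the receptor through which Efna1 acts on vessels, was at 5.70 ± 0.40 in c-kit-positive cells and 6.51 ± 0.23 in c-kit-negative cells (limma, not passed, adjusted p = 0.0678). Epha6, a receptor of the nervous system, was at 3.57 ± 0.11 in c-kit-positive cells and 3.37 ± 0.07 in c-kit-negative cells (limma, not passed, adjusted p = 0.444). The differences of the remaining 7 EphA and ephrin-A genes ran from -0.20 for Efna4 to 0.25 for Epha10.

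**Figure D3:**
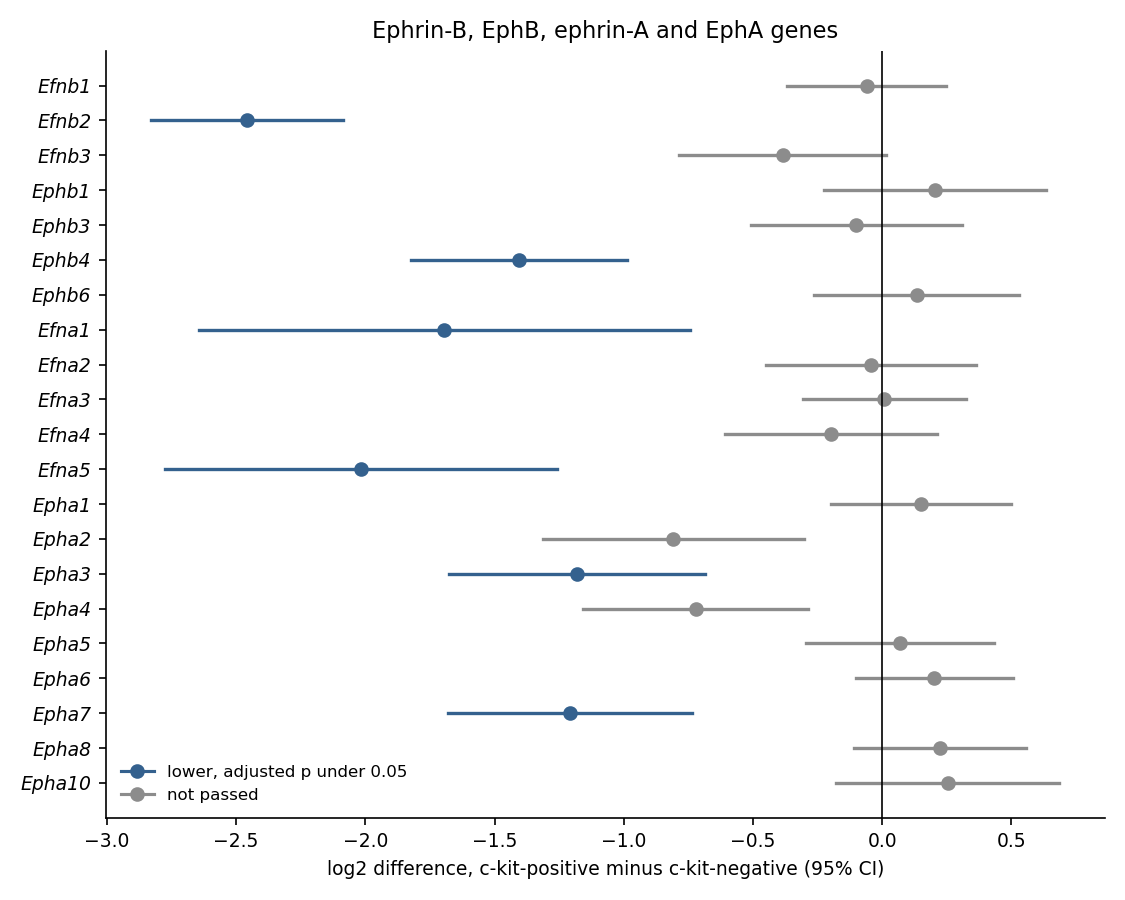
Difference in log2 RMA value, c-kit-positive minus c-kit-negative (horizontal axis), with its 95% CI from limma, for the ephrin-B, EphB, ephrin-A and EphA genes from top to bottom. Genes past the threshold are in blue and all lie left of 0, from -2.46 for Efnb2 to -1.18 for Epha3, and genes in grey did not pass.

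Inside the cell, EphB receptors and ephrin-B tails work through adaptors, exchange factors and PDZ domain proteins. A 4th group, proteases and phosphatases, acts on the receptors and ligands themselves. Of 36 measured genes in these 4 groups 9 were lower in c-kit-positive cells (25%, against 4.7% of all genes) and 0 were higher (against 2.71%), with a median difference of -0.17. Several of these proteins serve many other receptors as well, and the 4 lists were chosen with earlier results of these arrays known.

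Of the adaptors and Src or Abl family kinases, 3 of 15 fell. Grb10, an imprinted gene whose adaptor protein binds EphB1 and also the insulin receptors, was at 7.37, 7.35 and 7.22 in c-kit-positive cells and at 9.48, 9.59 and 9.72 in c-kit-negative cells. It was 4.88-fold lower (adjusted p = 4.65e-05, limma), with tight and widely separated populations. Yes1, a Src family kinase, was at 6.11 ± 0.32 in c-kit-positive cells and 7.52 ± 0.06 in c-kit-negative cells (mean ± SD, n = 3 each). Its 2.66-fold fall passed (limma, adjusted p = 0.00233). Fyn, another kinase of that family, was 1.85-fold lower (adjusted p = 0.0310, limma) and passed in 1 of the 6 fits that left out an array, the fit without c-kit-positive replicate 2 (0.0111, against 0.0738 to 0.0948 in the other 5, limma).

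Src itself, which phosphorylates the ephrin-B tail, was at 5.92 ± 0.13 in c-kit-positive cells and 5.93 ± 0.20 in c-kit-negative cells (mean ± SD, n = 3 each), with a 95% CI for the difference of -0.36 to 0.34. Nck2, the adaptor that binds phosphorylated ephrin-B and is also called Grb4, was at 5.67 ± 0.16 in c-kit-positive cells and 5.67 ± 0.23 in c-kit-negative cells, with a 95% CI of -0.37 to 0.38. Neither passed (adjusted p = 0.985 and 0.998, limma). The positive differences of the list were led by Shb (0.57) and Grb2 (0.48), adaptors of many tyrosine kinases, which did not pass either (adjusted p = 0.140 and 0.168, limma).

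Of 7 exchange factors 2 fell. Arhgef15, also called Ephexin5, is an exchange factor bound by EphB2 and is made in vascular cells. It was at 5.87, 5.55 and 6.21 in c-kit-positive cells and at 7.97, 7.41 and 7.72 in c-kit-negative cells, without overlap (3.54-fold lower, adjusted p = 0.00157, limma). Kalrn, through which EphB receptors activate Rac in dendritic spines, was at 5.58 ± 0.10 in c-kit-positive cells and 6.37 ± 0.13 in c-kit-negative cells (mean ± SD, n = 3 each), a fall of 1.72-fold (limma, adjusted p = 0.0116). Tiam1 and Vav2 had differences of 0.05 and -0.10.

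Of 10 partners of the ephrin-B or EphB tail 3 fell. Dab2, an endocytic adaptor that works with ephrin-B2 in the uptake of VEGF receptors, was at 5.96, 5.93 and 6.29 in c-kit-positive cells and at 8.60, 8.27 and 8.17 in c-kit-negative cells. That is 4.88-fold lower (adjusted p = 0.000147, limma). A dimmer probe set of Dab2, with means of 3.20 in c-kit-positive cells and 3.22 in c-kit-negative cells, differed by -0.02. Afdn, or afadin, a junction protein whose PDZ domain binds Eph receptors, was at 7.66 ± 0.09 in c-kit-positive cells and 8.55 ± 0.05 in c-kit-negative cells (mean ± SD, n = 3 each), a fall of 1.85-fold (limma, adjusted p = 0.00442).

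Rgs3, which links ephrin-B to G protein signalling, was 1.96-fold lower (adjusted p = 0.0252, limma). It passed in 1 of the 6 fits that left out an array, the fit without c-kit-positive replicate 3 (0.0132, against 0.0537 to 0.0836 in the other 5, limma). A dimmer probe set of Rgs3 had means of 5.19 in c-kit-positive cells and 5.87 in c-kit-negative cells. Its smaller difference of -0.68 passed narrowly (adjusted p = 0.0485 over all probe sets, limma). Pard3, the polarity protein that acts with Dab2 and ephrin-B2 in that uptake, was at 6.56 ± 0.14 in c-kit-positive cells and 6.72 ± 0.31 in c-kit-negative cells (mean ± SD, n = 3 each) and did not pass (adjusted p = 0.664, limma). Sdcbp, or syntenin, which binds the ephrin-B tail, was at 9.81 ± 0.15 in c-kit-positive cells and 10.26 ± 0.18 in c-kit-negative cells (limma, not passed, adjusted p = 0.134). The positive differences of the list were led by Pard6b, a polarity protein that binds ephrin-B1, and Pick1, a PDZ protein (0.66 and 0.47), which did not pass (limma, adjusted p = 0.127 and 0.347). The populations of Pard6b did not overlap and those of Pick1 did.

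Of 4 genes of cleavage and dephosphorylation, Adam10 fell. This protease sheds ephrins and also cleaves Notch receptors and cadherins. It was at 7.46, 7.57 and 7.21 in c-kit-positive cells and at 8.28, 8.61 and 8.60 in c-kit-negative cells (2.11-fold lower, adjusted p = 0.00506, limma).

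**Figure D4:**
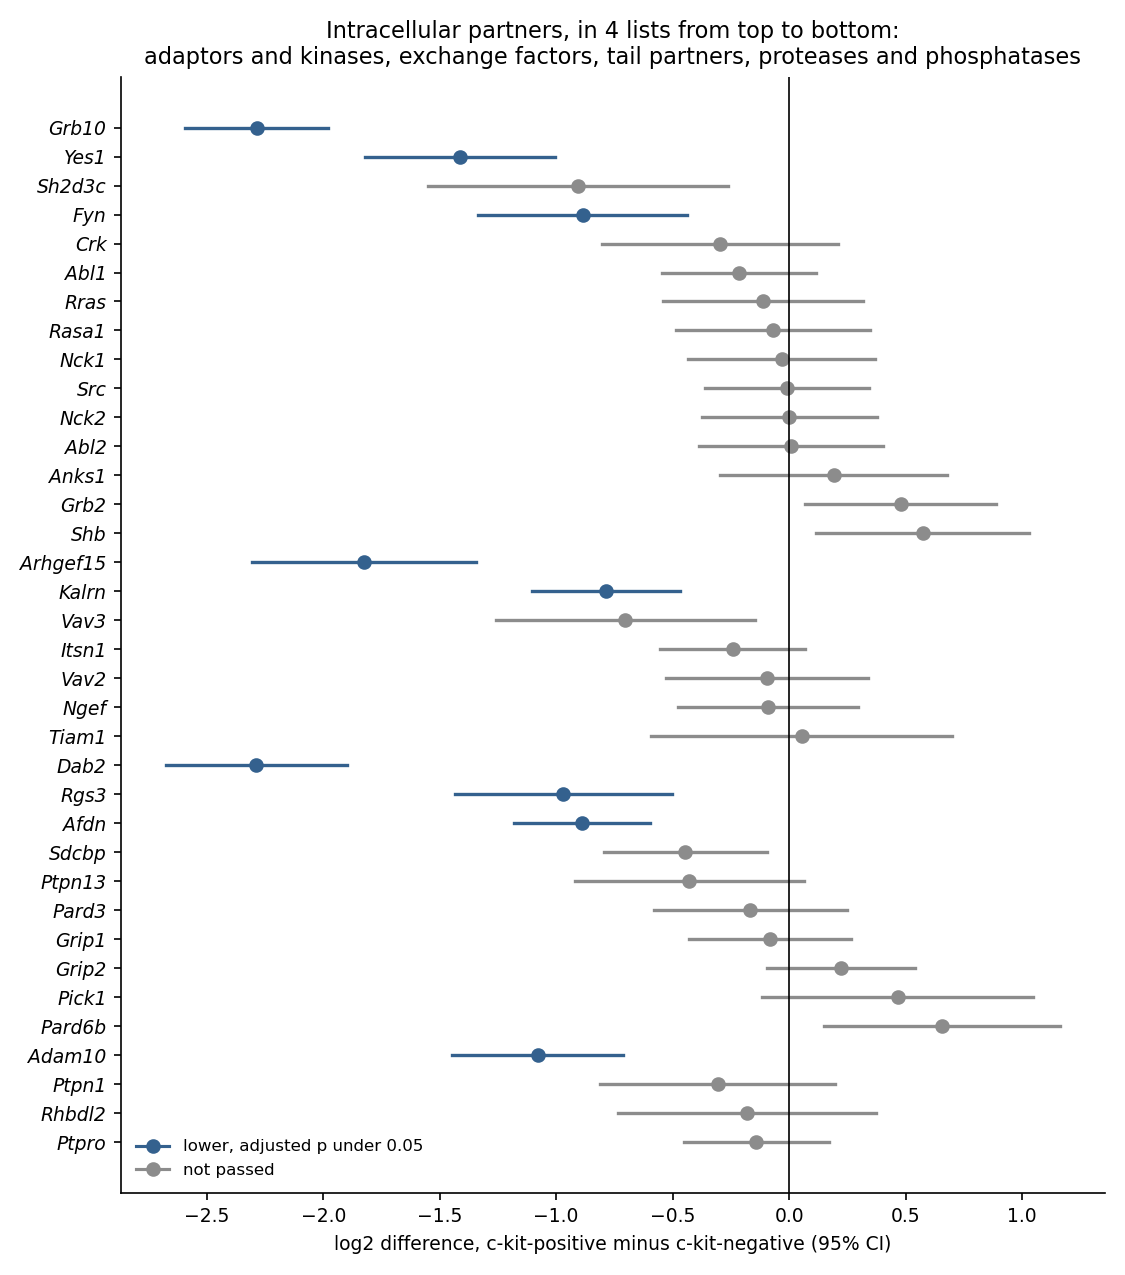
Difference in log2 RMA value, c-kit-positive minus c-kit-negative (horizontal axis), with its 95% CI from limma, for 36 signalling partners in 4 lists from top to bottom. The 9 genes past the threshold, in blue, all lie left of 0, and the lowest in each list are Grb10 (-2.29), Arhgef15 (-1.83), Dab2 (-2.29) and Adam10 (-1.08).

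Markers of several cell types of the region moved with the same split. Their calls are set beside all genes, of which 4.7% were lower and 2.71% higher in c-kit-positive cells. Of 26 pan-endothelial markers 26 were lower in c-kit-positive cells (median -1.99), with a mean level per array of 6.13 to 6.29 in c-kit-positive and 8.44 to 8.56 in c-kit-negative cells. Of 16 arterial markers 11 were lower (median -1.22, mean level 5.64 to 5.87 in c-kit-positive cells against 7.17 to 7.31 in c-kit-negative cells), and of 10 venous and lymphatic markers 7 were lower (median -1.64, mean level 5.29 to 5.55 in c-kit-positive cells against 7.001 to 7.19 in c-kit-negative cells). Of 16 mesenchymal and smooth muscle markers 8 were lower (median -0.90, mean level 5.15 to 5.26 in c-kit-positive cells against 6.17 to 6.48 in c-kit-negative cells). Of 15 germ cell markers 13 were higher (median 1.13, mean level 8.40 to 8.76 in c-kit-positive cells against 7.31 to 7.34 in c-kit-negative cells). The lowest log2 value of any probe set was 1.22, so the absence of 0 values does not show that a marker was detected. The part of any of these cells in the fall of the Eph and ephrin genes was not tested, and in bulk samples fewer cells of a type and less RNA per cell cannot be told apart.

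Of the 16 arterial markers 3 fell further than Efnb2, among them Nrp1, a co-receptor for VEGF and semaphorins (16.3-fold lower), and Foxc2 (7.01-fold lower). Of the 26 pan-endothelial markers 10 fell further than Efnb2 and 21 further than Ephb4, and Kdr, the main VEGF receptor, was 29.3-fold lower. Of the 10 venous and lymphatic markers 5 fell further than Ephb4, led by the apelin receptor gene Aplnr (28.2-fold lower). In that list 1 marker went the other way, with a difference of 1.19 that did not pass.

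**Figure D5:**
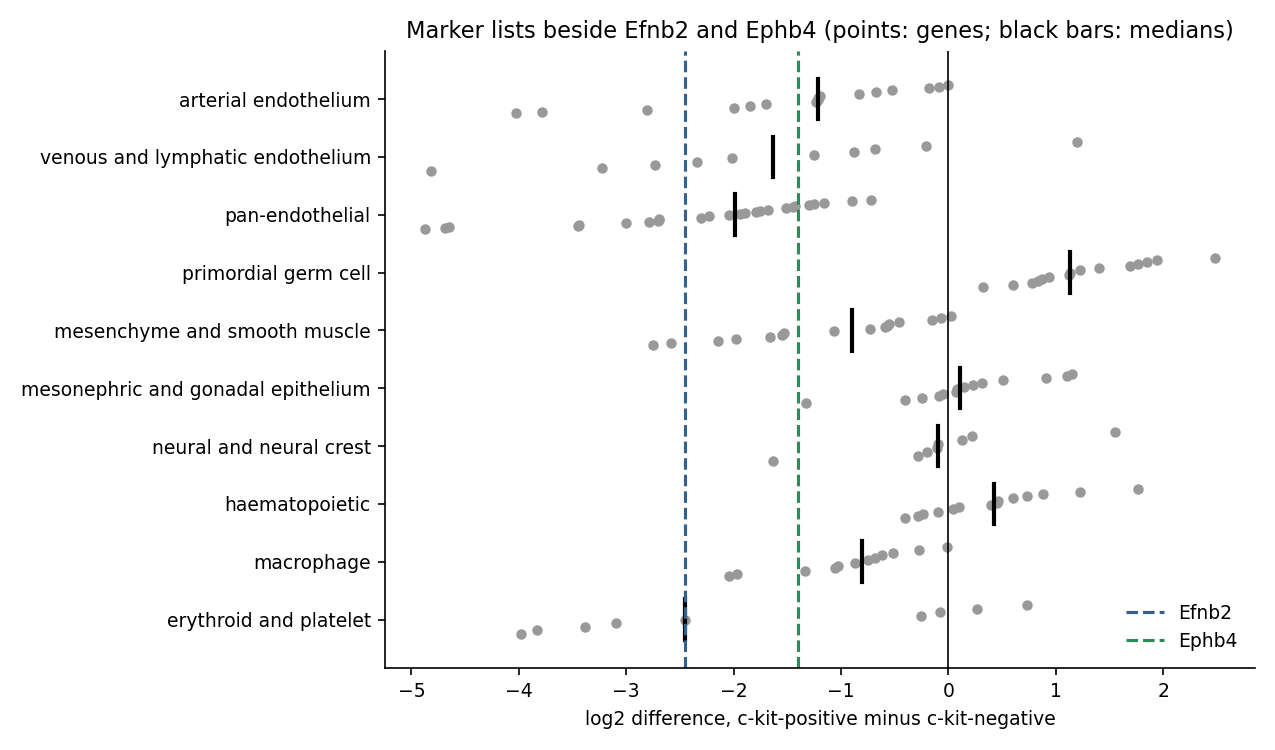
Difference in log2 RMA value, c-kit-positive minus c-kit-negative (horizontal axis), of the genes of each marker list (grey points), with the list's median as a black bar. The dashed lines stand at -2.46 for Efnb2 and -1.40 for Ephb4. Endothelial medians lie between -1.99 and -1.22, and the germ cell median at 1.13.

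The calls in the other lists are set beside the same shares of all genes, 2.71% higher and 4.7% lower. Of 14 haematopoietic markers 4 were higher and 0 lower (median 0.42, mean level 7.29 to 7.38 in c-kit-positive and 6.80 to 7.02 in c-kit-negative cells), led by Myb. Of 14 markers of mesonephric and gonadal epithelium 2 were higher and 1 lower (median 0.11). Of 12 macrophage markers 3 were lower (median -0.81), and their mean level ran from 5.48 to 5.85 in c-kit-positive and from 6.12 to 7.24 in c-kit-negative cells. Of 9 erythroid and platelet markers 5 were lower (median -2.46), with mean levels of 5.85 to 6.17 in c-kit-positive cells against 7.21 to 8.23 in c-kit-negative cells. Of 8 markers of neural tissue and neural crest 1 was lower, Stmn2, and 1 higher, Sox2, which germ cells also express (median -0.10).

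The genes whose pattern over the 6 arrays was most like that of Efnb2 were Igfbp4, a binding protein of insulin-like growth factors (Pearson r = 0.9986), Pja2, a ubiquitin ligase (r = 0.9985), and Cd93, a receptor of endothelium and haematopoietic progenitors (r = 0.9985). Those most like Ephb4 were Ebf3, a transcription factor (r = 0.9975), Bgn, the matrix proteoglycan biglycan (r = 0.9963), and Adcy4, an adenylyl cyclase (r = 0.9962). All 6 genes were lower in c-kit-positive cells. Bgn, for example, was at 5.09 ± 0.45 in c-kit-positive cells and 7.52 ± 0.14 in c-kit-negative cells, and Cd93 at 7.44 ± 0.14 in c-kit-positive cells and 9.78 ± 0.11 in c-kit-negative cells (mean ± SD, n = 3 each). With 6 arrays in 2 groups such a correlation mostly restates the group difference: 48 genes exceeded r = 0.99 with Efnb2 and 22 with Ephb4.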

How the data were processed

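From each of 6 sorted samples 5 ng of RNA was amplified, per the labels' protocols, with a whole-transcript kit, converted to sense-strand cDNA and labelled with biotin. The authors made the deposited log2 values with RMA, per the submitters' processing notes; version and settings: not given in the sources used. Amplification from little RNA and array background can compress fold changes of dim genes.

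Of 34760 probe sets, 21640 had 1 gene symbol in the platform annotation, 1321 had several, and 11799 were not listed there and stayed unnamed. An Entrez identifier linked 21553 of the 21640 to the reference table, which changed 0 symbols. Where a gene had several probe sets (954 genes), the one brightest on average represented it.

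The 19937 genes were fitted with limma 3.58.1 in R 4.3.3 (two-sided, no filter, no block; differences are c-kit-positive minus c-kit-negative), adjusted by Benjamini-Hochberg over all genes. The fit was also run on simulated data with independent noise for each gene, which checks the code and not the calls made here. The members and lists were chosen with earlier results of these data known. Named genes were all members, genes of the Eph lists, up to 3 genes of smallest p per marker list, and the 3 genes best correlated with each member that passed. Alternatives were other scalings, probe set rules, a filter on dim genes, a trended prior, array weights, the replicate block, a stricter threshold and leaving out each array. Promoter sequences are RefSeq's (GRCm38.p6), matched by symbol. Figures were drawn with matplotlib 3.10.9.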

Additional observations from a re-analysis of the deposited data

How the results depend on the processing

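Efnb2 and Ephb4 passed in all 15 alternatives, with adjusted p (limma) of 5.18e-05 to 0.000815 and 0.00214 to 0.0151, and the count of members lower stayed at 2 in each. With 1 array left out, the differences were -2.60 to -2.36 for Efnb2, -1.54 to -1.23 for Ephb4, -0.50 to -0.26 for Efnb3, -0.14 to 0.0011 for Efnb1 (highest without c-kit-negative replicate 2), -0.25 to 0.052 for Ephb3 (highest without c-kit-negative replicate 3), 0.01 to 0.35 for Ephb1 and 0.03 to 0.28 for Ephb6. The sign of Ephb1 turned to -0.043 with the mean of its probe sets and to -0.29 with the probe set of smallest p. None of these 5 passed in any alternative, and 4 of them were not tested when the dimmer 50% of genes was left out. The change of Efnb2 minus Ephb4 ran from -1.20 to -0.91 with 1 array left out. With the replicate block its exact p was 0.25 (sign flips of 3 pairs, two-sided). That is the smallest p this test allows, so it does not show a weaker change. Over all genes, 131 were higher and 499 lower at an adjusted p under 0.01, and 276 to 369 higher and 670 to 745 lower with 1 array left out. EphA and ephrin-A genes called lower numbered 2 at 0.01 and 2 to 5 with 1 array left out; the count was 2 when replicate 3 of either population was left out. The partners called lower numbered 6 at 0.01 and 7 to 10 with 1 array left out. Deviations of same-numbered samples correlated at 0.00071, 0.024 and 0.059, and those of different-numbered samples at -0.057 to 0.036. With 3 arrays per population these values cannot tell whether same-numbered samples came from the same sort. The replicate block changed no call among the members (difference -2.46 for Efnb2 and -1.40 for Ephb4). The number of arrays, 3 per population, limits the precision of every value.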
